A study of Mus musculus with 8 samples.

Results

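The genes described here encode nucleoporins, the proteins that build the nuclear pore, and karyopherins, the receptors that carry proteins and some RNAs through it. They were taken by symbol, as protein-coding mouse genes whose names begin with Nup and a digit, Kpna, Kpnb, Ipo and a digit, Xpo and a digit, or Tnpo. The rule found 43 genes (21 nucleoporins and 22 karyopherins) among 49315 gene identifiers, and it uses names only, with no measured value. A further match, Kpna2-ps, is a pseudogene with no count in any library and was left out.

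The RNA came from mouse CD8 T cells of the OT-I strain, whose transgenic T cell receptor is specific for ovalbumin. The cells had been edited with CRISPR-Cas9 and a crRNA against Carm1 or, in the control, against the bacterial gene LacZ. Each arm had 4 libraries, labelled Control KO (genotype given as wild type) and Carm1 KO, and the cells of both arms were OT-I and CD45.1. Naive cells from spleen and inguinal nodes were held in interleukin-15 (50 ng/ml) with interleukin-7 (2.5 ng/ml), edited by nucleofection, and collected 7 days after editing. The labels call the libraries of an arm technical replicates and give no number of animals or cultures, so p-values measure the spread between these libraries alone, and whatever else separated the preparations of the arms cannot be told apart from the edit. The authors checked loss of Carm1 protein by Western blot, per the labels. The series text speaks of co-culture with ovalbumin-bearing B16F10 melanoma cells, which the sample protocols do not mention. No age of the animals is given.

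A nuclear pore is a ring of many copies of each nucleoporin: Y-shaped complexes and an inner ring form the scaffold, nucleoporins rich in phenylalanine-glycine (FG) repeats fill the channel, and filaments and a basket extend to either side. Importins bind a nuclear localisation signal, directly or through an importin alpha adaptor, and exportins bind an export signal. Direction comes from the small GTPase Ran, which is bound to GTP in the nucleus, where it releases import cargo and loads export cargo. In T cells this traffic carries the transcription factors that receptor and cytokine signals send to the nucleus, and the pre-ribosomes of growing cells leave through the same pores.

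Library totals ran from 37556330 to 41439998 counts, at which 3 counts in a library equal 0.0724 to 0.0799 CPM, that is, counts divided by library size and put on a common scale. Levels below are CPM on TMM-scaled library sizes (TMM, trimmed mean of M values, corrects for differences in RNA composition), and n = 4 in each group throughout. The Carm1 transcript averaged 95.9 ± 1.04 CPM (SD) in control and 32.8 ± 0.493 CPM in edited libraries. The T cell markers Cd3d, Cd3e, Cd3g, Cd8a, Cd8b1, Trac, Cd2 and Lck summed to 4880 to 5000 CPM and 6680 to 6890 CPM, so the labelled cell type was present in every library. Markers of other cells differed between the arms: 8 myeloid genes summed to 119 to 123 CPM in the control and 5.94 to 7.22 CPM in the edited libraries. The control sum was mostly Lyz2, with group means of 83.1 and 0.148 CPM. All 8 myeloid genes fell, against 43.2% of all tested genes, and 6 were at least 2-fold lower, against 15.2%. Cd68 (5.41 and 3.33 CPM) and Itgam (2.12 and 1.08 CPM) fell by less than 2-fold. Of the B cell genes, Ighm rose from a mean of 254 to 925 CPM, Cd79b from 5.71 to 17.1 CPM and Cd79a from 0.460 to 1.93 CPM, while Ms4a1 and Pax5 stayed at a mean of 0.0923 CPM or less. Of 7 melanoma genes, Tyr, Tyrp1, Dct and Sox10 had no counts, and Pmel was at 3.43 and 12.7 CPM. Of the lists for other lineages, 3 CD4 T cell genes summed to 6.63 to 7.02 CPM in the control and 35.2 to 38.6 CPM in the edited libraries, mostly Zbtb7b, with Cd4 at 0.168 and 0.782 CPM. The 4 NK cell genes summed to 23.4 to 24.4 and 11.5 to 13.1 CPM, mostly Kit, at 15.2 and 9.81 CPM. The others on that list were Klre1 at 5.36 and 1.01 CPM, Klrb1c at 2.08 and 1.03 CPM and Ncr1 at 1.40 and 0.366 CPM. The 4 erythroid genes summed to 4.10 to 4.69 and 0.167 to 0.376 CPM. The part of these cells in the results below was not tested.

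Transcripts of the nuclear pore and of its receptors were lower in the Carm1-edited libraries almost throughout. Of the 43 genes, 41 had enough counts to be tested, 40 of them fell and 1, Nup210l, rose (edgeR quasi-likelihood test, adjusted p under 0.05 over 14970 genes). Across all tested genes 43.2% fell and 44.5% rose (87.7% in either direction), so most of the transcriptome differed between the arms, but in both directions. At least 2-fold lower were 21 of the 41 (51.2%), against 15.2% of all tested genes, and none was at least 2-fold higher, against 20.5%. The count of at least 2-fold falls was 13 of 41 with upper-quartile factors and 14 with library totals alone. It was 17 of 40 with a filter of 5 CPM in 4 libraries. The 2-fold shares of all tested genes under these alternatives were not computed. The median log2 fold change of the members, Carm1-edited minus control, was -1.01, beside 0.02 for all tested genes. In bulk RNA a lower share of cells that express these genes and less of their RNA per cell cannot be told apart.

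For each of the 40 genes that fell, the highest edited library was lower than the lowest control library, as for 41.2% of all tested genes; Nup210l was apart in the other direction, as were 42.2%. Upper-quartile factors move the median of all tested genes up by 0.215 on the log2 scale and turn 53.5% of them higher and 34.2% lower; 38 members were then lower and 3 higher, the added ones being Kpna4 and Tnpo2.

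**Figure D1:**
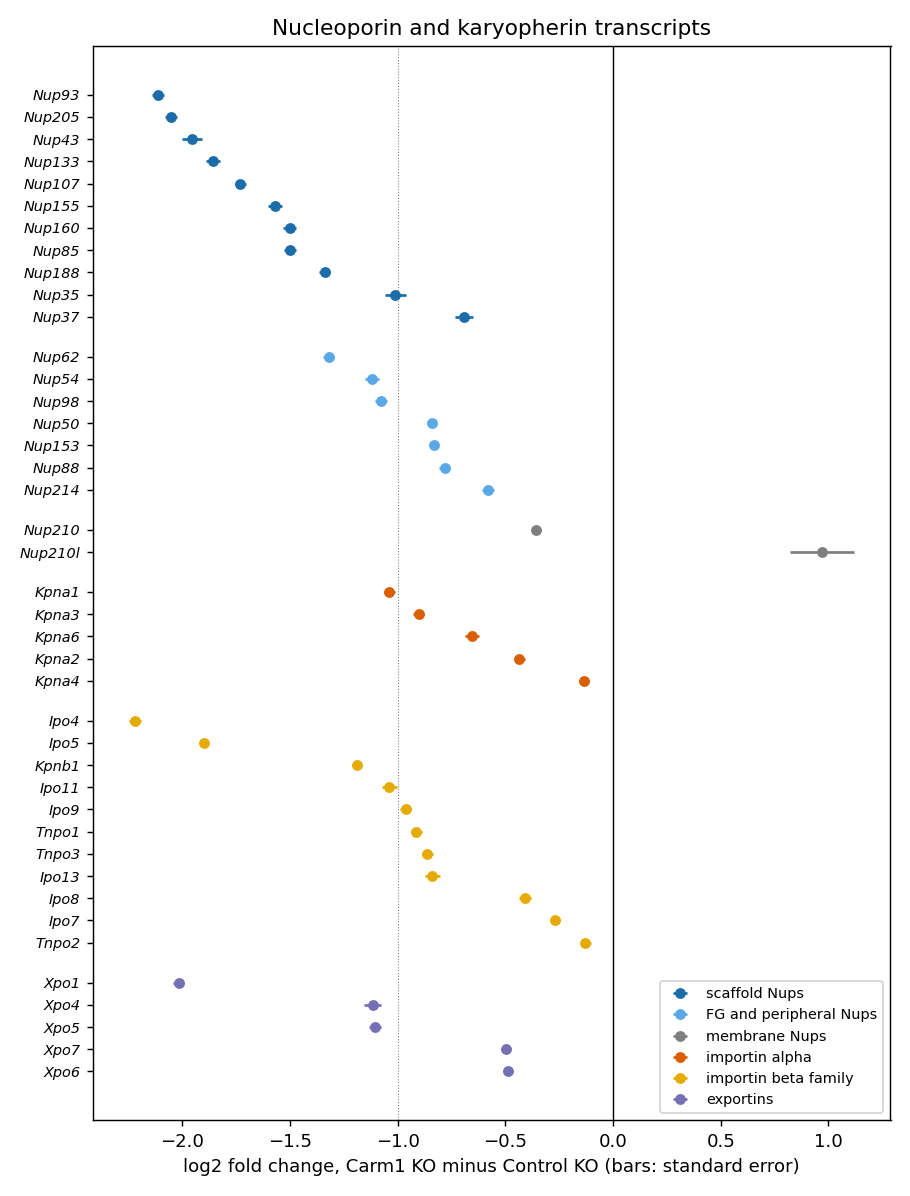
Log2 fold change (Carm1 KO minus Control KO, horizontal axis) of each of the 41 tested genes, grouped by role; bars are standard errors and the dotted line marks a 2-fold fall. Ipo4, Nup93, Nup205 and Xpo1 lie farthest to the left, each beyond a 4-fold fall, Kpna4 and Tnpo2 lie just left of 0 (right of it under upper-quartile factors or library totals), and Nup210l alone lies to the right.

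The scaffold of the pore fell throughout. All 11 genes were lower, and 10 of them were at least 2-fold lower (edgeR quasi-likelihood test, largest adjusted p = 6.7e-19). Of all tested genes 43.2% were lower and 15.2% at least 2-fold lower. The median log2 fold change of the 11 was -1.57. In the inner ring, Nup93 encodes the subunit that holds its partners Nup188, Nup205 and the channel nucleoporins in place (chromosome 8, 94214564 to 94317227, plus strand, mm10). Nup93 was at 113, 115, 114 and 117 CPM in the control libraries and at 26.7, 27.3, 25.7 and 26.2 CPM in the edited libraries. Its log2 fold change was -2.11 ± 0.028 (standard error, SE), a 4.33-fold fall, and the groups stood far apart. Nup205, a large curved scaffold protein, was at 172, 176, 174 and 171 CPM and 39.8, 42.5, 43.4 and 41.1 CPM, a log2 fold change of -2.05 ± 0.027. Nup188, the related scaffold protein that binds Nup93 in its place, fell less, from 136, 138, 135 and 137 CPM to 52.1, 53.8, 55.8 and 54.3 CPM (-1.34 ± 0.026). Nup155, which ties the inner ring to the pore membrane, fell from 74 ± 2.5 to 24.9 ± 1 CPM (2.97-fold). Nup35, a small membrane-binding subunit, had the lowest level of the ring per kilobase and fell 2.02-fold, from 21.2 ± 0.78 to 10.5 ± 0.3 CPM. The tested members of the inner ring were therefore all lower, from 2.02-fold for Nup35 to 4.33-fold for Nup93.

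The Y complex forms the outer rings and is among the parts laid down early when a pore is built. Nup107, the subunit after which the complex is often named, was at 112, 114, 111 and 111 CPM in the control and 34.1, 32.7, 34.5 and 33.7 CPM in the edited libraries, a log2 fold change of -1.73 ± 0.027. Nup133, at the tip of its stem, fell from 72.6, 71.9, 70 and 71.8 to 19.4, 19.3, 20 and 20.4 CPM (-1.86 ± 0.032). Nup160 and Nup85, which form its arms, fell alike, 2.83-fold from 83.8 ± 0.9 to 29.6 ± 1 CPM and 2.83-fold from 101 ± 1.5 to 35.8 ± 1.2 CPM. The subunits Nup43 and Nup37, both small propeller proteins at the arms, stood at the ends of the range. Nup43 fell from 33.7, 31.4, 32.8 and 31.1 CPM to 8.11, 8.56, 8.22 and 8.42 CPM, 3.87-fold. Nup37 was at 27.5, 27.2, 27 and 27 CPM and 16.4, 16.5, 17.4 and 17 CPM, and its log2 fold change of -0.69 ± 0.041 was the smallest of the 11 scaffold genes of the rule. Seh1l, a Y complex subunit outside the rule that is named here after its values were seen, fell 1.16-fold under TMM scaling, from 89.3 to 76.8 CPM. Its log2 fold change of -0.217 was about the size of the shift of 0.215 that upper-quartile factors bring. Levels per kilobase of exon allow genes to be compared. The 6 genes of the naming rule that encode Y complex subunits alone ran from 9.56 (Nup160) to 36 CPM per kb (Nup107) in the control. In the edited libraries they ran from 2.81 (Nup133) to 12.4 CPM per kb (Nup37). Per kilobase Nup37 thus passed from the third to the highest place among these 6. They leave out the subunits with other names, Sec13 and Seh1l, and also Nup98, which meets the rule and encodes the subunit Nup96 besides Nup98. This order rests on the annotated lengths (1362 bases for Nup37). By CPM alone Nup37 stayed below Nup107, at 16.8 and 33.8 CPM in the edited libraries.

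**Figure D2:**
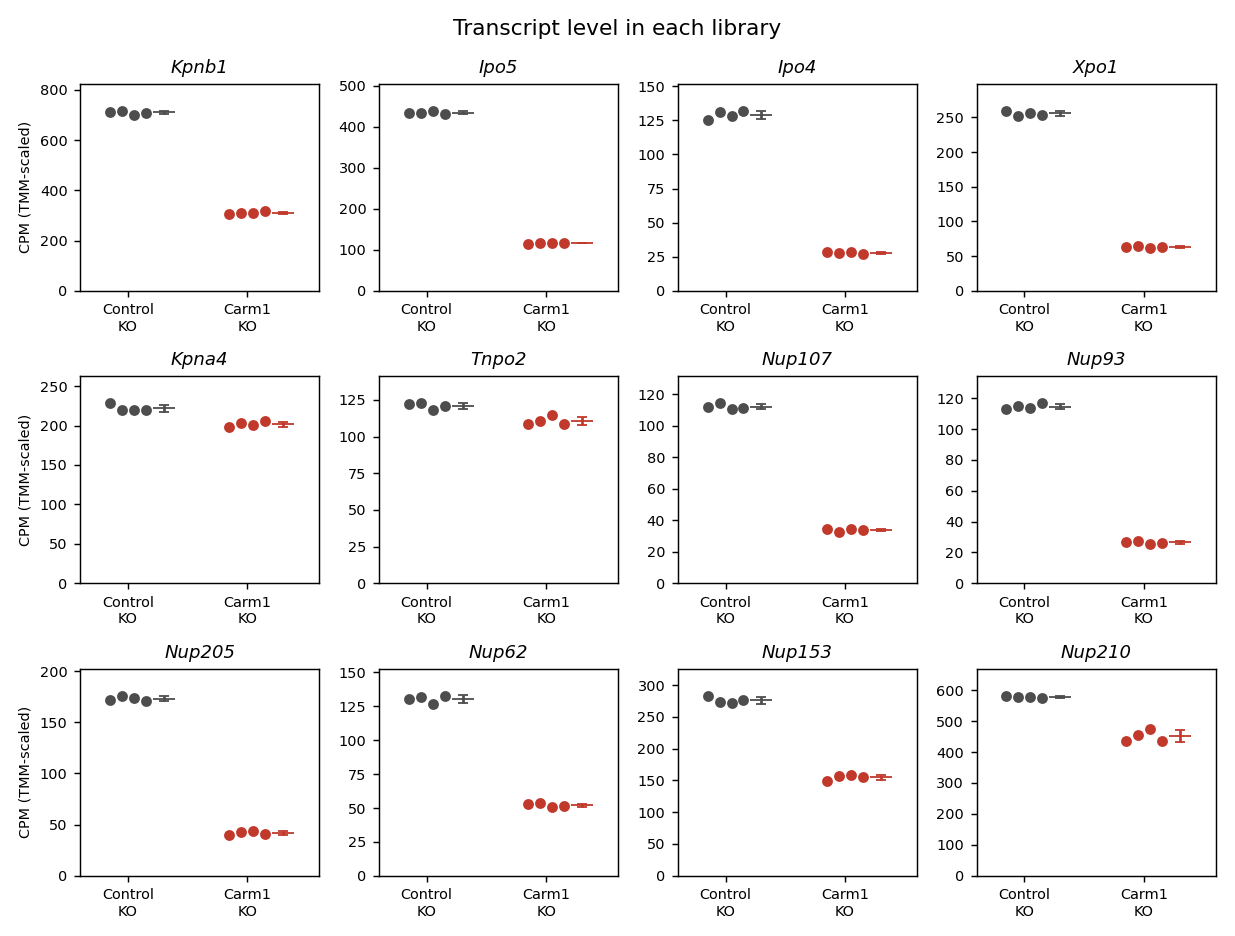
CPM (TMM-scaled, vertical axes from 0) of 12 genes in each of the 4 Control KO (grey) and 4 Carm1 KO (red) libraries, with the mean and SD beside the points. The groups are far apart for Kpnb1, Ipo5, Ipo4, Xpo1, Nup107, Nup93 and Nup205 and close for Kpna4 and Tnpo2.

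Nucleoporins of the channel and of the pore's faces were lower too, 7 of 7 tested, against 43.2% of all tested genes, and their median log2 fold change was -0.84. Nup62, the FG protein at the centre of the channel, was at 130, 132, 127 and 133 CPM in the control and 52.7, 53.4, 51 and 51.5 CPM in the edited libraries, a log2 fold change of -1.32 ± 0.026 (edgeR quasi-likelihood test, adjusted p = 4.7e-36). Its partner Nup54 fell 2.17-fold, from 59.6 ± 1.2 to 27.4 ± 0.69 CPM. Nup98, whose precursor is cut into the FG protein Nup98 and the Y complex subunit Nup96, fell 2.11-fold, from 136 ± 0.98 to 64.3 ± 2.9 CPM. These 3 of the 7 were at least 2-fold lower, against 15.2% of all tested genes.

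At the nuclear basket, Nup153, an FG protein that anchors the basket and binds importins, was at 283, 273, 271 and 276 CPM in the control and 150, 156, 158 and 155 CPM in the edited libraries (-0.83 ± 0.023). Nup50, a mobile basket protein that helps release cargo from importin alpha, fell 1.79-fold, from 153 ± 3 to 85.4 ± 1.7 CPM. On the cytoplasmic face, Nup88 and its FG partner Nup214, both part of the export platform for Xpo1 cargo and mRNA, fell 1.72-fold and 1.5-fold. Nup88 went from 116 ± 1.6 to 67.4 ± 0.99 CPM and Nup214 from 97.5 ± 0.84 to 65.1 ± 2.7 CPM. Basket and cytoplasmic genes fell by less than 2-fold in each case. Nup62cl, a relative of Nup62, had 1 count in all 8 libraries and was not tested.

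Nup210 encodes a glycoprotein that spans the pore membrane and whose level differs between tissues. Among the nucleoporins of the naming rule it had the highest level per kilobase, at 55.2 CPM per kb in the control and 43.1 CPM per kb in the edited libraries, and the smallest fall. Its level was 582, 578, 577 and 575 CPM in the control and 437, 457, 475 and 437 CPM in the edited libraries, a log2 fold change of -0.36 ± 0.024 with a wider spread among the edited libraries. Nup210l, a related gene best known from testis, was the exception in direction. It was at 1.04, 1.03, 1.3 and 1.36 CPM in the control and 2.75, 1.73, 2.6 and 2.21 CPM in the edited libraries, with a log2 fold change of 0.97 ± 0.149 (edgeR quasi-likelihood test, adjusted p = 1.8e-07). These levels rest on 38 to 50 counts per control library and 72 to 115 per edited library, and the groups did not overlap.

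Among the importin alpha adaptors, which link cargo with a classical localisation signal to importin beta, TMM scaling gave falls for 5 of 5 tested genes. Of all tested genes 43.2% fell. The median of the adaptors was -0.65 on the log2 scale. Kpna1, known as a carrier of STAT proteins, was at 118, 116, 118 and 113 CPM in the control and 53.8, 58, 56.9 and 58.1 CPM in the edited libraries. It fell most of the class, with a log2 fold change of -1.04 ± 0.027. Kpna3, known with Kpna4 for carrying NF-kB subunits, was at 111, 105, 106 and 107 CPM and 56.4, 56.3, 59.4 and 58 CPM (-0.90 ± 0.026). Kpna6, the close relative of Kpna1, fell 1.57-fold, from 71.6 ± 3 to 45.5 ± 1.6 CPM. Kpna2, an adaptor abundant in dividing cells, was at 93, 97.5, 94.9 and 95.1 CPM and 71.4, 69, 70.9 and 70.1 CPM (-0.44 ± 0.025).

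Kpna4 was the adaptor with the smallest difference (chromosome 3, 69067149 to 69127113, minus strand, mm10). It was at 228, 219, 220 and 220 CPM in the control and 198, 203, 201 and 205 CPM in the edited libraries, so that the groups were apart but close. The log2 fold change of -0.14 ± 0.022 (edgeR quasi-likelihood test, adjusted p = 5.6e-07) was smaller than the shift between scalings. Kpna4 turned to 0.079 under upper-quartile factors (adjusted p = 0.00129) and to 0.024 under library totals (adjusted p = 0.333, the highest over its alternatives). Kpna7, an adaptor of the egg and early embryo, had 0 to 3 counts per control library and 2 to 4 per edited library and was not tested.

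The importin beta family does the carrying, and under TMM scaling its 11 genes were all lower, against 43.2% of all tested genes. Their median was -0.91 on the log2 scale. Kpnb1 encodes importin beta itself, the partner of the importin alpha adaptors (chromosome 11, 97159714 to 97187881, minus strand, mm10). It was the most abundant member per kilobase in both arms and was at 714, 717, 700 and 710 CPM in the control and 306, 311, 311 and 317 CPM in the edited libraries. This gave a log2 fold change of -1.19 ± 0.021 (edgeR quasi-likelihood test, adjusted p = 3.5e-37). Kpnb1 thus fell 2.28-fold, more than any importin alpha adaptor by its fitted value.

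Ipo4 and Ipo5 fell most in this family. Ipo4, an importin of core histones and ribosomal proteins (chromosome 14, 55625400 to 55637895, minus strand, mm10), was at 125, 131, 128 and 132 CPM in the control and 28.1, 27.4, 28.6 and 26.8 CPM in the edited libraries. Its log2 fold change of -2.22 ± 0.028 was the lowest of all members, and 4.18% of tested genes had a lower one. Ipo5, which imports histones and ribosomal proteins too, was second per kilobase only to Kpnb1 in its family. Ipo5 was at 433, 434, 439 and 431 CPM and 115, 116, 116 and 118 CPM, a log2 fold change of -1.90 ± 0.022. For both genes every edited library was far below every control library.

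The other importins fell less. Ipo9, an importin of histones and actin, fell 1.95-fold, from 106 ± 1.5 to 54.6 ± 1 CPM, and Ipo11 fell 2.05-fold, from 56.9 ± 1.1 to 27.7 ± 1.6 CPM. Ipo13, which works in both directions, fell 1.79-fold, from 44.4 ± 1.2 to 24.8 ± 0.77 CPM. Ipo7, a carrier of ribosomal proteins and of linker histone, was at 271, 260, 259 and 253 CPM in the control and 213, 213, 214 and 225 CPM in the edited libraries (-0.27 ± 0.024). Ipo8, the close relative of Ipo7 and a carrier of SMAD proteins, was at 60.4, 59.4, 60.8 and 58 CPM and 44.6, 43.8, 45.7 and 45.4 CPM (-0.41 ± 0.029). Ipo7 and Ipo8 thus stayed nearer to the control level than Ipo4 and Ipo5, although Ipo7 shares part of their cargo.

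Transportins read signals other than the classical one. Tnpo1, the carrier of many RNA-binding proteins, was at 236, 226, 226 and 222 CPM in the control and 113, 122, 124 and 124 CPM in the edited libraries (-0.91 ± 0.026). Tnpo3, the importin of SR splicing factors, fell 1.82-fold, from 133 ± 2.1 to 73.3 ± 1.8 CPM. Tnpo2, closely related to Tnpo1 (chromosome 8, 85036915 to 85057583, plus strand, mm10), was at 122, 123, 118 and 121 CPM and 109, 110, 115 and 109 CPM. The difference of -0.13 ± 0.025 on the log2 scale passed the edgeR quasi-likelihood test (adjusted p = 9.8e-06). As for Kpna4 its direction turned with scaling, to 0.087 under upper-quartile factors (adjusted p = 0.00143) and 0.032 under library totals (adjusted p = 0.247, the highest over its alternatives). No direction is therefore given for Tnpo2 apart from the scaling.

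The 5 exportin genes named Xpo and a digit were all lower, against 43.2% of all tested genes, and their median log2 fold change was -1.10. Xpo1, the main exportin for proteins with a leucine-rich signal and for ribosomal subunits (chromosome 11, 23256041 to 23298249, plus strand, mm10), was at 260, 253, 257 and 254 CPM in the control and 63.2, 64.6, 62.2 and 62.6 CPM in the edited libraries. This was a 4.05-fold fall, with a log2 fold change of -2.02 ± 0.024 (edgeR quasi-likelihood test, adjusted p = 1.5e-43). Xpo5, the exporter of microRNA precursors, was at 89.6, 87.9, 88.5 and 87.2 CPM and 39.6, 40.4, 42.8 and 41.7 CPM (-1.10 ± 0.028). Xpo4, whose cargo includes a translation factor, fell 2.17-fold, from 46.7 ± 1.3 to 21.5 ± 1.7 CPM. Xpo6, the exporter of actin, was at 181, 186, 183 and 185 CPM and 131, 133, 136 and 125 CPM (-0.49 ± 0.025). Xpo7, a receptor with a broad set of cargoes, fell 1.41-fold, from 112 ± 0.7 to 79.1 ± 1.8 CPM. These 5 genes therefore split, with Xpo1, Xpo4 and Xpo5 at least 2-fold lower (as were 15.2% of all tested genes) and Xpo6 and Xpo7 lower by about the same smaller factor.

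Unequal falls changed the mixture of receptors. The share of each gene in its class was taken from CPM per kilobase, so it does not depend on the scaling factor. Xpo1 made up 42.3% ± 0.22 (SD) of the total of the 5 Xpo genes in the control and 24.6% ± 0.65 in the edited libraries. Xpo6 went from 12.9% ± 0.26 to 21.6% ± 0.59 and Xpo7 from 8.78% ± 0.11 to 14.6% ± 0.33. Per kilobase, Xpo5 (28.3% and 30.9%) took the highest place of the 5 in the edited libraries. This order rests on unlike annotated lengths, 3709 bases for Xpo5, 7181 for Xpo1 and 16920 for Xpo6. By CPM alone Xpo6 was the highest of the 5 in the edited libraries, at 131 CPM, with Xpo5 at 41.1 CPM. The exportins Cse1l and Xpot, which the rule does not take, are not in the total of the 5 Xpo genes. In the importin beta family Kpnb1 kept a like share, 31.7% ± 0.22 and 30.8% ± 0.19. Ipo5 went from 27.8% ± 0.27 to 16.5% ± 0.11 and Ipo4 from 7.07% ± 0.19 to 3.37% ± 0.13. The gain lay mostly in Ipo7, from 6.86% ± 0.18 to 12.6% ± 0.27, and in Tnpo2, from 5.66% ± 0.085 to 11.5% ± 0.28. Among the importin alpha adaptors, Kpna4 went from 23.0% ± 0.21 to 30.4% ± 0.33, Kpna3 from 23.9% ± 0.41 to 18.6% ± 0.33 and Kpna1 from 12.7% ± 0.23 to 8.99% ± 0.26. Summed levels of each class were 108 ± 1.2 and 74.3 ± 0.83 CPM per kb for importin alpha, 340 ± 1.7 and 153 ± 2.0 for the importin beta family, and 84.1 ± 0.72 and 35.8 ± 0.73 for the 5 Xpo genes.

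**Figure D3:**
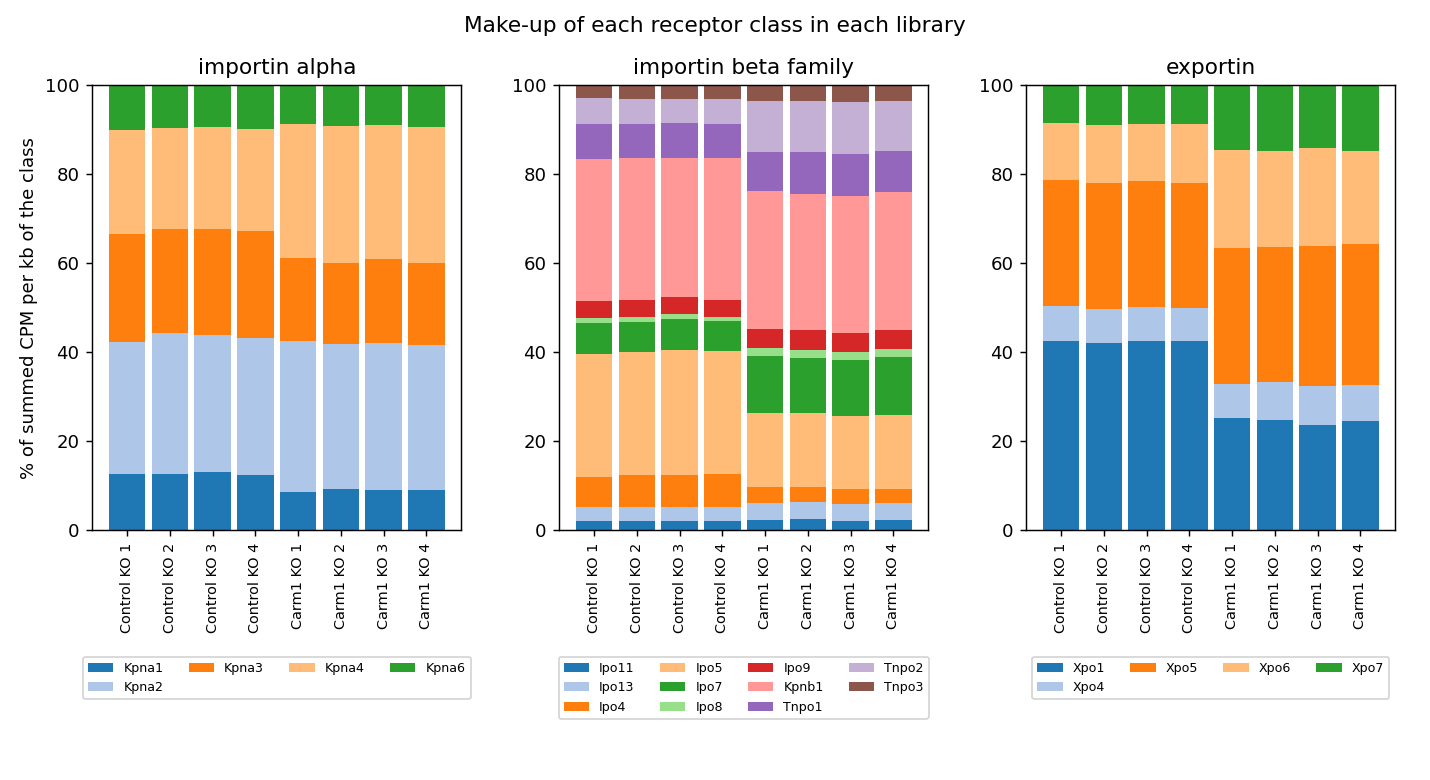
Share of each gene in the summed CPM per kb of its receptor class (vertical axis, percent) in each of the 8 libraries; Kpna7, at 0.0426% or less, is not drawn. The 4 edited libraries differ from the 4 control libraries in the same way, with smaller shares of Xpo1, Ipo5, Kpna3 and Kpna1 and larger shares of Xpo6, Xpo7, Ipo7, Tnpo2 and Kpna4.

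Ratios of related genes were compared within each library, where scaling cancels out, for 4 pairs of close paralogs. The log2 ratio of Tnpo1 to Tnpo2 counts was 0.91 ± 0.037 (SD) in the control and 0.13 ± 0.055 in the edited libraries, a difference of -0.79. For Kpna3 over Kpna4 it was -1.05 ± 0.014 and -1.81 ± 0.039, a difference of -0.77. These were the pairs with the largest shifts of the 4. The ratio of Kpna1 to Kpna6 went from 0.70 ± 0.066 to 0.32 ± 0.023, a difference of -0.39, and that of Ipo7 to Ipo8 rose slightly, from 2.13 ± 0.030 to 2.27 ± 0.035, a difference of 0.14. In all 4 pairs the groups did not overlap. Full separation of the arms was common: in level, 41.2% of all tested genes were wholly lower and 42.2% wholly higher in the edited libraries. No such share was computed for ratios of other gene pairs. An exact two-sided permutation test gave p = 0.0286 for each, the smallest that 4 against 4 libraries allow (adjusted p = 0.0286 over the 4 ratios). No pair shares an identical stretch of 75 bases in its annotated transcripts, and the longest shared stretch was 26 bases.

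**Figure D4:**
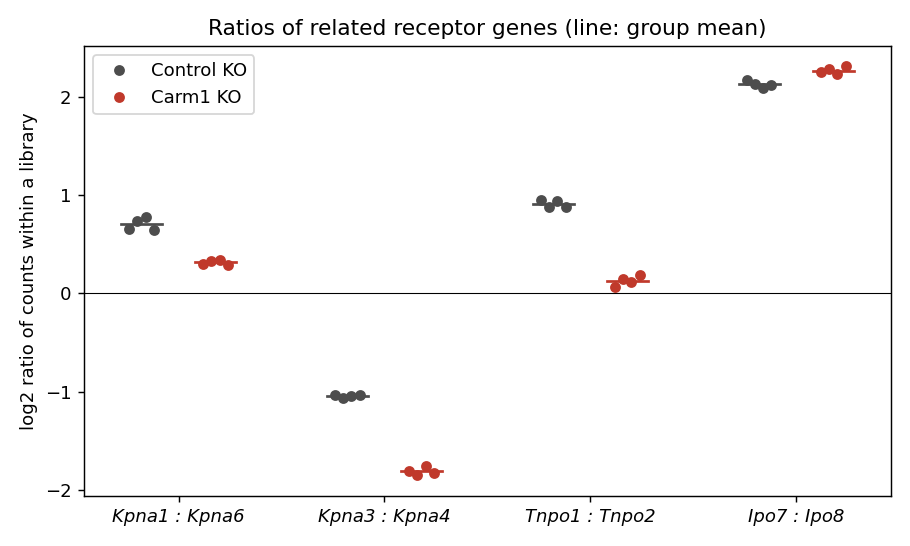
Log2 ratio of the counts of 2 related genes within a library (vertical axis) for 4 gene pairs, with points for the 4 Control KO (grey) and 4 Carm1 KO (red) libraries and lines at the group means. Tnpo1 to Tnpo2 and Kpna3 to Kpna4 drop by 0.79 and 0.77, Kpna1 to Kpna6 by 0.39, and Ipo7 to Ipo8 rises by 0.14.

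Genes of the same machinery outside the naming rule were read from fixed lists. Of 12 other pore genes, 11 fell, against 43.2% of all tested genes, and 1 missed the threshold, and their median log2 fold change was -0.68. Sec13, shared by the Y complex and vesicle coats, fell 2.61-fold, from 142 ± 3.17 to 54.1 ± 1.29 CPM. Ndc1, a membrane nucleoporin, fell 3.90-fold, from 29.4 ± 0.531 to 7.54 ± 0.539 CPM, and Ahctf1, which seats the Y complex on chromatin, fell 1.96-fold. The large peripheral proteins differed by smaller factors: Tpr of the nuclear basket went from 384 ± 2.73 to 262 ± 5.23 CPM and Ranbp2 of the cytoplasmic filaments from 263 ± 4.59 to 177 ± 5.49 CPM.

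A list of Ran cycle genes and further transport receptors, among them Cse1l, Xpot and Snupn, was lower as well. Of its 12 genes 10 were tested, all 10 fell (43.2% of all tested genes did) and 6 were at least 2-fold lower (15.2% of all tested genes were). Their median log2 fold change was -1.39. Ran itself fell from 906 ± 11.8 to 188 ± 5.70 CPM, a log2 fold change of -2.27 ± 0.024. Ranbp1, which helps take Ran off export complexes in the cytoplasm, fell 7.07-fold, from 347 ± 8.10 to 49.0 ± 1.93 CPM. Cse1l, the exportin that returns importin alpha to the cytoplasm, fell from 161 ± 3.37 to 46.7 ± 2.17 CPM (3.45-fold). By fitted value the 3 fell more than any importin alpha adaptor.

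Among 21 mRNA export genes there were 17 falls and 3 rises (median -0.72 on the log2 scale), where 43.2% of all tested genes fell and 44.5% rose. The helicase gene Ddx39 fell 4.46-fold, its relative Ddx39b 1.76-fold, and Alyref, an adaptor that loads mRNA for export, 3.76-fold. Zc3h11a, a zinc finger protein of the export complex, rose 2.15-fold, from 13.0 ± 0.831 to 28.1 ± 1.73 CPM. Thoc2 and Thoc7 of the THO complex rose from 94.8 ± 3.09 to 109 ± 4.33 and from 51.0 ± 1.34 to 55.3 ± 2.13 CPM. For Thoc7 the libraries of the arms overlapped. The other THO genes on the list all fell, by 1.86- to 2.21-fold. In the list of the nuclear lamina and its bridges to the cytoskeleton, 8 of 17 genes rose and 8 fell (47.1% each, median -0.0075 on the log2 scale), near the shares of all tested genes. Lmnb2, a B-type lamin, and Banf1, which binds chromatin to the envelope, fell 3.56-fold and 3.42-fold, and Lmnb1 fell 2.03-fold. Syne1, a giant nesprin, rose from 18.2 ± 0.760 to 112 ± 6.16 CPM, Tor1a, an ATPase of the envelope, rose 1.61-fold, and Lbr, the lamin B receptor gene, rose 1.44-fold. Whether the lists differ from each other was not tested.

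**Figure D5:**
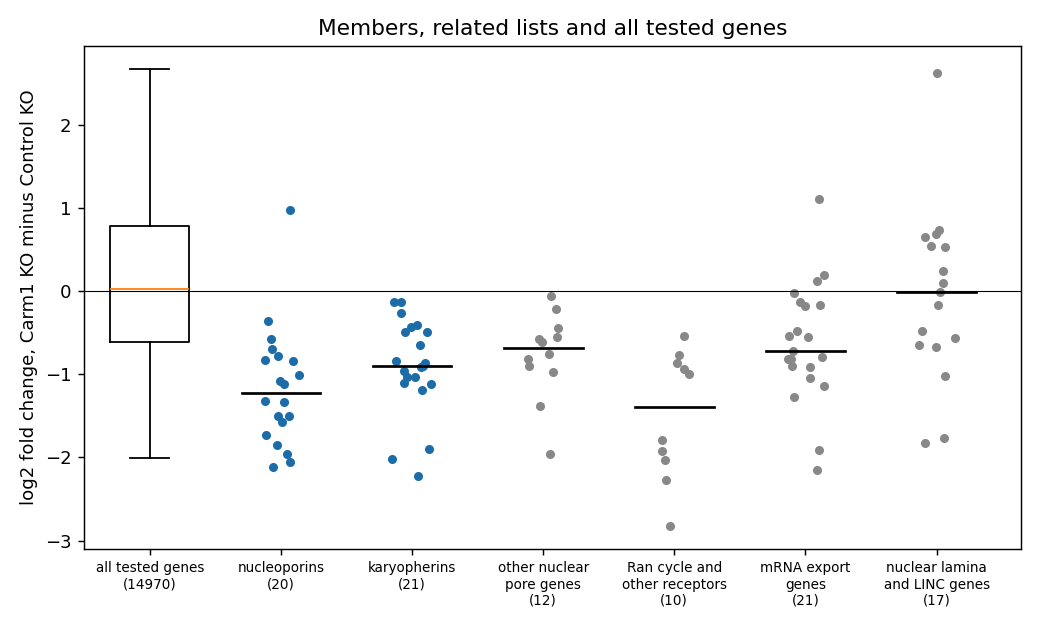
Log2 fold change (Carm1 KO minus Control KO, vertical axis) of each tested nucleoporin and karyopherin (blue) and of 4 related lists (grey), with a line at each median; the box shows quartiles and median of all 14970 tested genes and its whiskers the 5th and 95th percentiles. Medians lie at -1.22 for nucleoporins, -0.90 for karyopherins, -1.39 for the list of Ran cycle and other receptor genes and -0.0075 for the lamina list.

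Promoters of the members were read for short motifs, as a description. The RefSeq table (GRCm38.p6) holds 250 bases before and 50 after the start for 32 of the 41 tested members. The E-box CACGTG, which reads the same on both strands and is bound by MYC with MAX and by related factors, was present for 6 of the 32 (18.8%), against 11.6% of 10289 tested genes with a promoter. By window it was in 15.4% of the members' windows and in 7.15% of all windows, those of untested genes included. GGGCGG (SP family, either strand) was present for 71.9% and 66.7%, CCAAT (NF-Y, either strand) for 56.2% and 42.8%, and CCGGAAG (ETS family, either strand) for 18.8% and 20.4% of members and tested genes. No overlap between these motifs was removed. The 6 genes with the E-box were Ipo4, Nup93, Nup188, Nup54, Ipo7 and Tnpo2, which include both the strongest fall of the set and its weakest. The 250 bases upstream of the start are shown for Nup93 and Nup188, which fell 4.33-fold and 2.53-fold, and for Ipo7 and Tnpo2, which fell 1.21-fold and 1.09-fold under TMM scaling. They were picked by their fold changes, as the largest and smallest falls among the genes with the motif before the start. Each is written 5′ to 3′ on the strand of its gene, with CACGTG in capitals; in Ipo4 the motif lies in the 50 bases after the start.
Nup93 (chr8:94214314-94214563, plus strand): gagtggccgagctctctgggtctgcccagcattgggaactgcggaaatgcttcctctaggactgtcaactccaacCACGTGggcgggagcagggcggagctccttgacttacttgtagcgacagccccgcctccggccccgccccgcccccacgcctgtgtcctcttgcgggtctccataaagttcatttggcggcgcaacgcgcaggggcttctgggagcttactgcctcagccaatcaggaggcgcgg
Nup188 (chr2:30286166-30286415, plus strand): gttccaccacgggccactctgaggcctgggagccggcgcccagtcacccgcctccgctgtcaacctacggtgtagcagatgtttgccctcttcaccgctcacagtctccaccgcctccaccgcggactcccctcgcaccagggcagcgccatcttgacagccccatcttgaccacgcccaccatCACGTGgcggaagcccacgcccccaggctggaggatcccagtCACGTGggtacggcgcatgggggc
Ipo7 (chr7:110018065-110018314, plus strand): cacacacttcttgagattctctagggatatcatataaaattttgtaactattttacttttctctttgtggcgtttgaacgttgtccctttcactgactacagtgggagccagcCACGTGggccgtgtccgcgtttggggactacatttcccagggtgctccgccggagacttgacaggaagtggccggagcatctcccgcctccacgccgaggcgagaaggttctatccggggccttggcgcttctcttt
Tnpo2 (chr8:85036643-85036892, plus strand): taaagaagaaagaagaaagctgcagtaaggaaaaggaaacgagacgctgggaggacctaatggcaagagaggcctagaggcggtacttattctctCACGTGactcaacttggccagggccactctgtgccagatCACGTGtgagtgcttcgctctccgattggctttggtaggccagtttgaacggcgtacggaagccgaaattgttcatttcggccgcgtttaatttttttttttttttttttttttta
Nup93 and Ipo7 hold 1 E-box each in this window, and Nup188 and Tnpo2 hold 2 each. Nup93 and Tnpo2 have 2 listed windows each, of which only the 1 with the motif is shown. Motif matches are letters in a window, not measured binding, and their relation to the fold changes was not tested.

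Some members share sequence or exons with other genes, and the kit did not mark strand. Kpna2 shares 58.9% of the 75-base windows of its transcripts with the pseudogene Gm10184, which was at 1.51 and 0.895 CPM, and Nup35 shares 33.8% with Gm4353, at 0.456 and 0.208 CPM. Ipo4 shares 50.4% with Gm49378, for which no level was computed. Ipo4 also overlaps Tm9sf1 over 12.8% of its exon bases (66.8 and 44.6 CPM for Tm9sf1), and Tnpo2 overlaps the antisense gene A230103J11Rik over 10.6% (1.49 and 1.38 CPM). Nup214 overlaps Fam78a, which was higher at 240 and 672 CPM, over 1.83% of its exon bases. The values of Kpna2, Nup35 and Ipo4 are the least certain in this respect.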

How the data were processed

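Polyadenylated RNA of 8 libraries was sequenced as paired 150 bp reads. The authors made gene counts with RSEM, per the labels' protocols, on mm10, per the submitters' processing notes. The deposited counts are whole numbers, although RSEM gives estimates that need not be; not given in the sources used here were the aligner, annotation release, strand setting and the way counts became whole. Gene length per the file headers was used for levels per kilobase. Symbols came from GENCODE M21 (GRCm38) for 48970 of 49315 identifiers, and the rest held at most 0.0535% of a library's counts.

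Counts were tested as deposited. The 14970 genes kept by filterByExpr were scaled by TMM and compared with edgeR's robust quasi-likelihood F test (edgeR 4.0.16, R 4.3.3), two-sided. Adjusted p-values are Benjamini-Hochberg values, called under 0.05. A standard error was taken as the absolute log2 fold change over the root of F. On simulated counts for these 14970 genes and this comparison, 62%, 84%, 92% and 92% of genes changed 1.25-, 1.5-, 2- and 4-fold were recovered, with 15 calls among 14770 unchanged genes. Only 50 genes were changed at each size, in random directions, whereas 87.7% of tested genes were called in the data. These rates therefore do not cover errors of scaling when most genes differ. Paralog ratios used log2 of counts with 0.5 added and exact permutation tests (scipy 1.17.1). Library pairs of a group differed by 1.45 to 13.5 chi-square per degree of freedom, so none was treated as a copy. Limits set by depth cover counting error only. Alternatives were other scalings and filters, DESeq2 1.42.0, limma-voom (limma 3.58.1), a replicate block and each library left out.

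The members, lists and tests were chosen with earlier results of these data known. All members are accounted for. Of each related list at most the 3 genes with the smallest adjusted p in each direction are named, besides Ran, Cse1l, Ranbp2 and Tpr. Outside this naming rule, Seh1l is given with its values, and Xpot and Snupn are mentioned by name. A gene of the marker lists is not reported here.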

Additional observations from a re-analysis of the deposited data

Results flagged for a closer look

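Among 132 groups of 4 values (levels of the named genes and the 4 ratios, in each arm), 8 held a library whose distance to its nearest neighbour took up most of the range of the group (Dixon's test at 95%); chance alone gives about 1 in 20 groups. In the control arm, Nup54 was at 61.4 CPM in replicate 4 and at 58.8 to 59.1 CPM in the others, and Kpna4 at 228 CPM in replicate 1 and 219 to 220 CPM in the others. In the edited arm, Ipo7 was at 225 CPM in replicate 4 and at 213 to 214 CPM in the others. Of the related genes, control Ndc1 was at 28.6 CPM in replicate 1 (others 29.7), control Ranbp1 at 334 CPM in replicate 3 (others 350 to 351), control Ddx39b at 470 CPM in replicate 2 (others 454 to 457), control Lbr at 245 CPM in replicate 1 (others 232 to 233) and edited Tpr at 254 CPM in replicate 1 (others 264 to 265). In every case the 2 arms remained apart.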

How the results depend on the processing

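The count of members that fell was 40 with RLE factors, no filter, DESeq2, limma-voom, the replicate block and each library left out, and 38 with upper-quartile factors, library totals alone and the filter of 5 CPM in 4 libraries. With upper-quartile factors 3 members rose (against 1), 13 were at least 2-fold lower (against 21) and 1 at least 2-fold higher, Nup210l, as also with library totals alone (1); without each library in turn, 0 to 1 were at least 2-fold higher (1 without control replicate 3 or 4 or edited replicate 2), 20 to 21 at least 2-fold lower, 40 lower and 1 higher. With the filter of 5 CPM, which drops Nup210l, 0 members rose and 17 of 40 were at least 2-fold lower. Kpna4 turned to 0.079 and 0.024 and Tnpo2 to 0.087 and 0.032 with upper-quartile factors and library totals alone; with the 5 CPM filter they were at -0.0431 (adjusted p = 0.0562) and -0.0353 (adjusted p = 0.175), no longer called. The cause was not tested. Of the other pore genes 1 rose with upper-quartile factors, of the mRNA export genes 5 did, and of the Ran cycle genes 1 did with no filter, which adds genes to the test. Falls among the mRNA export genes numbered 14 with upper-quartile factors or library totals alone and 16 with the 5 CPM filter, against 17. Among the other pore genes 10 fell with upper-quartile factors, against 11. In the lamina list 10 rose and 7 fell with upper-quartile factors, against 8 and 8. For single genes, 985 values under an alternative kept their direction and side of the threshold, 4 reversed and 2 were no longer called, all 6 of them for Kpna4 and Tnpo2.

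Left-out libraries gave ratio differences of -0.406 to -0.360 (Kpna1 to Kpna6), -0.783 to -0.752 (Kpna3 to Kpna4), -0.806 to -0.763 (Tnpo1 to Tnpo2) and 0.125 to 0.153 (Ipo7 to Ipo8), with p = 0.0571 in exact permutation tests, the smallest that 3 against 4 allow, so these say nothing on stability of the call. No pairing of libraries by replicate number was detected: same-numbered libraries correlated at -0.0848 to -0.0509 in their deviations, and 0 of 8 matched its own number best. With 4 libraries in each arm this check cannot exclude a pairing. With the replicate block 6611 genes were higher and 6420 lower, against 6667 and 6468, and 1 member rose and 40 fell. Depth left untested Kpna7 and Nup62cl, among the members.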
